A study of Homo sapiens with 13 samples.

Results

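The constructs described here are designed enhancer arrays in which the motif of CTCF stands beside the motif of NFKB or of IRF. They were found by their names, which list the motifs in order: a construct was a member when its name held CTCF and NFKB and nothing else, or CTCF and IRF and nothing else. Of the 542 constructs of the series, 22 qualified, in 8 motif orders: CTCF_NFKB, NFKB_CTCF, CTCF_NFKB_CTCF and NFKB_CTCF_NFKB (12 constructs), and CTCF_IRF, IRF_CTCF, CTCF_IRF_CTCF and IRF_CTCF_IRF (10 constructs). Each order was read in 3 flanking sequence contexts, numbered 1 to 3, except CTCF_IRF_CTCF, which was read in context 2. The 5 bp episomal library held all 22 constructs (3662 of 236860 barcodes), the 10 bp episomal library 18 (6904 of 210844 barcodes) and the integrated library 22 (762 of 16162 barcodes). The constructs missing at 10 bp were CTCF_IRF_CTCF and the 3 IRF_CTCF_IRF arrays.

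STARR-seq places a candidate enhancer inside the transcribed part of a reporter, so that sequences driving transcription become abundant in the mRNA they are part of. CTCF is a zinc finger protein known for anchoring chromatin loops and for insulating enhancers from promoters, and its motif is long compared with most others. NFKB denotes the dimeric Rel family factors that switch on inflammatory and survival genes in B cells, and IRF the interferon regulatory factors, some of which are central to B cell and plasma cell identity. MEC1, the cell line used throughout, is an established human line from chronic lymphocytic leukaemia, a cancer of mature B cells.

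The comparison asks how an array with an activating motif behaves when CTCF occupies 1 or more of its slots, and whether the number, the order, the spacing and the context of the motifs matter. For the episomal assay, unmodified MEC1 cells carried the arrays on plasmids with 5 bp or 10 bp between neighbouring motifs and were harvested 24 h after transfection. Each spacer had 1 plasmid DNA library and 2 mRNA libraries. The spacers were separate plasmid pools, so spacer and pool cannot be told apart. For the integrated assay, the 5 bp arrays were swapped by CRE recombinase into a landing pad of MEC1 cells in which a CMV promoter drives GFP between loxP and lox2272 sites. The labels describe this CRE as controlled by Blasticidin, which the cells received before transfection. Cells that had lost GFP were sorted after 10 to 12 days and grown for a further 6 to 7 days, and joint extraction from triplicates gave 3 RNA and 3 genomic DNA samples. Nothing in the labels says that replicates came from separate cultures, so p-values measure the spread between these samples, which may be technical.

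Kept barcodes carried 2998650 plasmid and 2477860 to 2826865 mRNA reads at 5 bp, of which the 22 members took 61942 and 9297 to 10562. At 10 bp they carried 3454547 plasmid and 3117619 to 3147463 mRNA reads, of which 18 members took 145022 and 49858 to 51257. Activity is the log2 ratio of a construct's share of mRNA reads to its share of plasmid reads, so that 0 means equal shares. Its SD covers the 2 mRNA libraries alone, because they share 1 plasmid library. The spread over the barcodes of a construct is given as a barcode SE. The labels name no molecular identifiers. Intervals over barcodes cover the spread between the barcodes of a construct, and binomial intervals cover counting error only. Neither covers differences between cultures.

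Each construct is read through many 12 bp random barcodes, and a few of these show what the values below are made of. The NFKB_CTCF_NFKB arrays are shown because their 3 contexts differed most at 10 bp. For each, the barcode with the most plasmid reads is printed, a choice that did not use mRNA. The integrated CTCF_NFKB array of context 3 and the CTCF_IRF array of context 1 are shown because a single barcode held most of their mRNA. No letters are singled out in capitals.
NFKB_CTCF_NFKB, context 1, 10 bp: gtaagtcatacg
NFKB_CTCF_NFKB, context 2, 10 bp: tggatttggttt
NFKB_CTCF_NFKB, context 3, 10 bp: gtctctttcaat
NFKB_CTCF_NFKB, context 3, 5 bp: ttggagctgcga
CTCF_NFKB, context 3, integrated: ccatggcaagca
CTCF_IRF, context 1, integrated: cttccgttccca
At 10 bp the context 1 barcode had 198 plasmid reads and 4 and 3 mRNA reads. The context 2 barcode had 192 plasmid reads and 19 and 17 mRNA reads. The context 3 barcode had 148 plasmid reads and 145 and 130 mRNA reads, so its mRNA was far closer to its plasmid level. At 5 bp the context 3 array had 100 plasmid reads and 21 and 18 mRNA reads in its deepest barcode. The CTCF_IRF barcode was also the deepest of its construct in the 5 bp episomal library, with 81 plasmid reads and 11 and 7 mRNA reads.

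With 5 bp spacers every array that mixed CTCF with NFKB or IRF was poorly transcribed, whichever partner it had. The 22 activities lay between -3.08 and -2.13 with a median of -2.56, while the median over all 542 constructs was -0.77. Homotypic CTCF arrays, those made of CTCF motifs alone, lay between -3.26 and -2.67, and the 3 constructs without a motif between -1.55 and -1.12. The mixed arrays therefore sat next to CTCF alone and below the constructs without a motif, with no overlap with the latter.

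By edgeR, with adjusted p under 0.05, 18 of the 18 members present at both spacers were lower in mRNA than in plasmid DNA at 5 bp, where 49.5% of all constructs were called lower. In the fit of the 5 bp library alone 22 of 22 members were called lower, beside 45.2% of all constructs. The 18 were also called lower by library totals, beside 69.9% of all constructs, and when scaled to the motif-free constructs, beside 26.0%. These scalings moved the median over all constructs by -0.67 and 0.75 on the log2 scale.

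Among the NFKB arrays at 5 bp, NFKB_CTCF_NFKB was the least depressed order. Its activity in context 1 was -2.14 and -2.11 in the 2 mRNA libraries (mean -2.13 ± 0.021, SD, n = 2). In context 2 it was -2.31 and -2.35, and in context 3 it was -2.20 and -2.15. All 6 values were higher than those of every other array of CTCF and NFKB in this library. The lowest was CTCF_NFKB_CTCF in context 3, with -2.92 and -3.23 (mean -3.08 ± 0.218, SD, n = 2), an 8.44-fold depletion in mRNA. The IRF arrays spread less, from -2.79 for CTCF_IRF in context 1 to -2.42 for IRF_CTCF_IRF in context 3, whose libraries gave -2.40 and -2.44.

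Against an array of the partner motif alone, with as many motifs and in the same context, all 22 members were lower at 5 bp (limma on the differences per mRNA library, adjusted p under 0.05), where 41.5% of the mixed arrays of all pairs were lower than such a partner. The median difference was -3.67 on the log2 scale, beside 0.11 over all mixed arrays tested. The gap was wider for NFKB, whose own arrays of 2 motifs lay between 1.05 and 1.22 and of 3 motifs between 1.70 and 2.07. Arrays of CTCF and NFKB lay between -5.14 and -3.55 from them. The widest difference was that of CTCF_NFKB_CTCF in context 3, at -4.99 and -5.30 per library (mean -5.14, barcode SE 0.120, limma adjusted p = 2.45e-10), a 35.4-fold lower activity. IRF arrays alone were weaker, between -1.16 and -0.09 with 2 motifs and between -0.90 and -0.61 with 3, and the arrays of CTCF and IRF lay between -2.70 and -1.33 from them. The narrowest gap was that of IRF_CTCF in context 3, at -1.28 and -1.37 per library (barcode SE 0.191, limma adjusted p = 2.58e-08). The 95% interval over barcodes excluded 0 in all 22 cases, beside 39.3% of all mixed arrays that were called lower and whose interval did so.

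Against homotypic CTCF of equal length and context, 0 of 22 members were lower and 14 were higher by limma at 5 bp, beside 26.2% lower and 63.1% higher among all mixed arrays set against the alphabetically first motif of their pair. Without adjustment the count of lower members at p under 0.05 was also 0, beside 111 of all 420 mixed arrays. Arrays of equal length and context share 1 CTCF array as their reference. The median difference was 0.29, and for 6 of the 14 the 95% interval over barcodes excluded 0, beside 56.0% of all mixed arrays. NFKB_CTCF_NFKB stood furthest above CTCF, by 1.03 and 1.22 per library in context 1 (mean 1.13, barcode SE 0.121, limma adjusted p = 2.17e-04) and by 0.77 and 0.83 in context 3 (mean 0.80, barcode SE 0.128). Among the IRF arrays, IRF_CTCF_IRF exceeded CTCF by 0.68 in context 1 and by 0.55 in context 3 (barcode SE 0.160 and 0.163). CTCF_NFKB_CTCF in context 3, CTCF_IRF in context 1 and NFKB_CTCF in context 1 had differences of -0.11, -0.02 and -0.01, with 95% intervals over barcodes of -0.43 to 0.22, -0.32 to 0.28 and -0.38 to 0.35.

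A mean of the log2 activities of both homotypic arrays, weighted by the copies of each motif, was higher than the mixed array in all 22 cases at 5 bp (limma), where 32.5% of all mixed arrays were below such a mean. The median shortfall was -1.37, beside a median of 0.36 over all mixed arrays. It was largest for NFKB_CTCF_NFKB, at -2.58 in context 2 and -2.56 in context 3, where the mean gives the more active NFKB array 2 of 3 parts. It was smallest for CTCF_IRF_CTCF in context 2, at -0.43 with a barcode SE of 0.317, the 1 case whose 95% interval over barcodes included 0. The other 21 compare with 29.9% of all mixed arrays.

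Arrays of 3 motifs with 2 CTCF motifs were less active than those with 1 in all 3 contexts of the NFKB arrays at 5 bp. Limma called 42.1% of such matched differences over all pairs lower. The compared orders, CTCF_NFKB_CTCF and NFKB_CTCF_NFKB, also differ in the position of CTCF and in the copies of the partner. Number, position and partner copies therefore cannot be told apart, here or in the other libraries. The difference was -0.69 in context 1 (barcode SE 0.292), -0.25 in context 2 (barcode SE 0.390) and -0.90 in context 3 (barcode SE 0.128), and the 95% interval over barcodes in context 2 included 0. For IRF the single matched difference, in context 2, was -0.09 with a 95% interval over barcodes of -0.67 to 0.49 and was not called. The order of CTCF and its partner in arrays of 2 motifs changed the measured activity little at 5 bp. The 6 differences, CTCF first minus CTCF second, lay between -0.20 and 0.32. Limma called 3 of them, all with NFKB, beside 82.1% of such differences over all pairs. All 6 had a limma SE of 0.057, pooled over all such differences. Their SD over the 2 mRNA libraries ran from 0.036 to 0.389. The 95% interval over barcodes excluded 0 in 0 of the 6, beside 65.5% over all pairs. Contexts differed by -0.49 to 0.30 within an order, with 15 of 21 differences called by limma beside 77.0% over all layouts, and 2 of them with a 95% interval over barcodes that excluded 0, beside 64.4%. Of the context differences called by limma or called with a minimum of 20 plasmid reads per barcode, 8 changed sign under that minimum. The comparison of contexts was added after the data had been seen. The 3662 member barcodes of the 5 bp library held 10562 and 9297 reads in the 2 mRNA libraries. Barcodes that gave no mRNA read are missing from these counts, as described below. Whether this narrowed the 5 bp differences between orders, between contexts and from homotypic CTCF was not tested.

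When the slots of CTCF were filled by each of the other 7 motifs in the same order, context and library, the CTCF version was the lowest of 8 in 22 of 22 layouts at 5 bp. Its activity lay a median of -2.99 from the median of the replacements. NFKB_CTCF_NFKB in context 1, at -2.13, faced replacements from 1.40 with PU1 to 1.89 with MYC. The closest case was IRF_CTCF_IRF in context 2, at -2.42, where the PU1 version was at -2.20. These ranks are descriptions without a test.

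With 10 bp spacers the arrays of CTCF and IRF stayed low, while those of CTCF and NFKB spread over almost 4 log2 units. Activities ran from -3.71 to 0.10 over the 18 members, with a median of -2.60 beside -0.67 over all 442 constructs. By edgeR 17 of 18 were lower in mRNA than in plasmid DNA, where 48.6% of all constructs were lower, and 1 was higher, where 45.7% were higher. By library totals edgeR called 17 lower, beside 62.4% of all constructs, and 0 higher, beside 31.2%. Scaled to the motif-free constructs it called 16 lower, beside 45.9%, and 1 higher, beside 45.5%, and CTCF_NFKB in context 2 was not called. The 6 arrays of CTCF and IRF lay between -2.84 (CTCF_IRF in context 1, -2.80 and -2.88 per library) and -2.17 (CTCF_IRF in context 3, -2.10 and -2.25). Homotypic CTCF arrays of 2 motifs lay between -2.84 and -2.76 in this library and those of 3 motifs between -3.22 and -3.03. The 3 constructs without a motif lay between -0.87 and -0.31.

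The higher construct was NFKB_CTCF_NFKB in context 3, with activities of 0.10 and 0.09 (mean 0.10 ± 0.012, SD, n = 2, barcode SE 0.022). Whether its 10 bp barcodes were assigned to the right array was not tested, and every 10 bp value and spacer difference of this construct depends on that assignment. Its edgeR log2 ratio was 0.65 (SE 0.05, adjusted p = 1.33e-09), and by library totals, without TMM scaling, it was 0.10 with an edgeR adjusted p of 0.0554. The same order gave -3.76 and -3.67 in context 1 (mean -3.71 ± 0.068, SD, n = 2), the lowest value of any member at either spacer, and -2.64 and -2.52 in context 2. Context 3 thus exceeded context 1 by 3.87 and 3.75 per library (mean 3.81, barcode SE 0.073, limma adjusted p = 4.99e-04), a 14.0-fold difference, and context 2 by 2.67 (barcode SE 0.169). It was the largest of all 440 context differences in this library, which ranged from -1.95 to 3.81.

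The context 3 array was represented by 1716 barcodes with a mean of about 16.3 plasmid reads each, against 328 barcodes in context 1 and 523 in context 2. In context 1 the mean was 34.7 plasmid reads per barcode. The part of this depth in the difference between contexts was not tested. Of the context 3 barcodes, 52.7% had an activity above 0, with a median of 0.05 and the middle 50 percent between -0.50 and 0.52. In context 1 the median barcode was at -3.61 and the upper quartile at -2.86. In context 2 the median was also -2.86, and 0.574% of barcodes were above 0. The single barcode with the most mRNA held 1.03% of the mRNA of the context 3 array. At 5 bp, arrays of this order in contexts 1 and 3 differed by -0.04 with a barcode SE of 0.087.

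Context also separated the shorter NFKB arrays at 10 bp. CTCF_NFKB reached -2.37 and -2.36 in context 1, -0.69 and -0.75 in context 2, and -1.48 and -1.52 in context 3. NFKB_CTCF was at -2.55 and -2.77 in context 1, -3.07 and -3.12 in context 2, and -1.55 and -1.52 in context 3. Both orders were therefore least depressed outside context 1, but in different contexts. CTCF_NFKB in context 2 lay within the range of the constructs without a motif, -0.87 to -0.31. Of the 18 context differences among members, limma called 15, beside 84.8% over all layouts, and the 95% interval over barcodes excluded 0 in 13, beside 74.3%. For the IRF arrays these differences lay between -0.11 and 0.67, within the span of the 2-motif NFKB arrays, -0.78 to 1.64.

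The order of the motifs mattered most in context 2 at 10 bp, where CTCF_NFKB exceeded NFKB_CTCF by 2.38 and 2.36 per library (mean 2.37, barcode SE 0.098, limma adjusted p = 5.99e-04), a 5.19-fold difference. This was the largest of the 84 order differences tested in the library. In contexts 1 and 3 the same difference was 0.30 (barcode SE 0.080, limma adjusted p = 0.0535) and 0.04 (95% interval over barcodes -0.11 to 0.18). With IRF, CTCF first exceeded CTCF second by 0.47 in context 2 (barcode SE 0.233), while contexts 1 and 3 gave -0.22 and 0.06 (barcode SE 0.119 and 0.118). Limma called 3 of the 6 order differences, beside 73.8% over all pairs.

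Compared with its partner motif alone, each 10 bp member was lower except NFKB_CTCF_NFKB in context 3: limma called 17 of 18 lower, beside 33.2% of all mixed arrays, and 1 higher, beside 61.2%. IRF arrays of 2 motifs were strong at this spacing, between 1.20 and 1.77, and the arrays of CTCF and IRF fell short of them by -4.61 to -3.38. CTCF_IRF in context 1 had the widest difference, -4.56 and -4.65 per library, a 24.4-fold lower activity (barcode SE 0.073, limma adjusted p = 4.26e-09). Arrays of CTCF and NFKB, other than the exception, lay between -3.68 and -0.91 from NFKB alone. NFKB_CTCF_NFKB in context 3 exceeded the array of 3 NFKB motifs by 1.23 and 1.11 (mean 1.17, barcode SE 0.042, limma adjusted p = 4.73e-07). The NFKB array of 3 motifs had itself an activity of -1.07 in context 3, the lowest of the 3 contexts and below all constructs without a motif (-0.87 to -0.31). Over the contexts the NFKB arrays of 3 motifs lay between -1.07 and -0.03, and those of 2 motifs between 0.19 and 0.79.

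Against homotypic CTCF at 10 bp, limma called 13 of 18 members higher, beside 63.4% of all mixed arrays, and 2 lower, beside 25.3%. With a 95% interval over barcodes that excluded 0 they were 8, beside 58.4%, and 1, beside 19.4%. The array below CTCF was NFKB_CTCF_NFKB in context 1, by -0.69 and -0.63 per library (mean -0.66, barcode SE 0.200, limma adjusted p = 1.57e-16, a value that rests on a spread pooled over all such differences). The same order in context 3 exceeded CTCF by 3.12 (barcode SE 0.092), CTCF_NFKB in context 2 by 2.04 (barcode SE 0.360), and CTCF_NFKB and NFKB_CTCF in context 3 by 1.30 and 1.26 (barcode SE 0.114 and 0.107). The copy-weighted mean of both homotypic arrays was higher than the mixed array in 16 of 18 cases by limma, beside 23.6% of all mixed arrays. The 2 members above it, beside 68.9% of all mixed arrays, were NFKB_CTCF_NFKB in context 3 by 1.82 and CTCF_NFKB in context 2 by 0.56. Against the log2 of a linear copy-weighted mean limma called 17 lower, beside 32.4% of all mixed arrays, and 1 higher, beside 61.3%. CTCF_NFKB in context 2 then turned to -0.09 (limma adjusted p = 0.0398), with a 95% interval over barcodes of -0.46 to 0.28.

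Arrays of 3 motifs with 2 and with 1 CTCF motifs differed in no common direction at 10 bp, and number again changed together with position and partner copies. CTCF_NFKB_CTCF exceeded NFKB_CTCF_NFKB by 0.88 in context 1 (barcode SE 0.352, limma adjusted p = 0.00205), and was lower by -0.73 in context 2 (barcode SE 0.304) and by -2.90 in context 3 (barcode SE 0.072, limma adjusted p = 2.07e-04). Limma called 56.4% of such differences lower and 38.5% higher over all pairs. CTCF_NFKB_CTCF itself varied little, with means of -2.83, -3.30 and -2.80 in contexts 1, 2 and 3, so the spread came from the order with 1 CTCF motif. Among the available replacements, the CTCF version was the lowest in 16 of 18 layouts, a median of -3.22 from the median replacement. The exceptions were CTCF_NFKB in context 2, at -0.72 with the MYC version at -0.87, and NFKB_CTCF_NFKB in context 3, the third of 6 from the bottom, above the NFKB version at -1.07 and the MYC version at -0.74.

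The edgeR interaction of spacer and mRNA called 8 of the 18 members found at both spacers, 5 higher and 3 lower at 10 bp, where 36.0% of all constructs were higher and 41.2% lower. Of these 8, 7 held NFKB and 1 held IRF, among 12 and 6 tested. The 4 largest increases were in NFKB_CTCF_NFKB in context 3, CTCF_NFKB in contexts 2 and 3 and NFKB_CTCF in context 3, and the largest decrease was in NFKB_CTCF_NFKB in context 1. The median of the 18 differences was 0.19, beside -0.05 over all constructs. By library totals, which moved that median by 0.11, edgeR called 9 members higher, beside 41.6% of all constructs, and 2 lower, beside 37.1%. Scaled to the motif-free constructs, which moved it by -0.71, edgeR called 14 members lower, beside 69.2% of all constructs, and 4 higher, beside 14.9%. Those 4 were the members with the largest increases.

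In the integrated library, activity is the log2 ratio of summed mRNA RPM to summed genomic DNA RPM, with 0.5 RPM added to each, and the 22 members were again mostly low. The denominator of the RPM is not given in the sources used here. Over the listed barcodes they summed to 561424 to 578948 for mRNA and 487877 to 506222 for genomic DNA, and a single barcode held 21.8% to 30.3% of the mRNA sum, so 0 does not mean equal shares here. Limma called 17 lower in mRNA, where 55.9% of all 513 constructs were lower, and 1 higher, where 13.5% were higher. Their median was -2.78, beside -1.45 over all constructs. The members had 18 to 60 barcodes each, and in 11 of 22 1 barcode supplied more than 50% of the mRNA over the 3 replicates. The 3 constructs without a motif ranged from -3.77 to 0.75. Centred on these 3 constructs, which moved the median of all constructs by 1.34, limma called 7 members lower, beside 18.3% of all constructs, and 2 higher, beside 28.7%.

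The 3 lowest members each had a replicate with almost no mRNA. CTCF_IRF_CTCF in context 2 had 0.119, 153 and 27.4 mRNA RPM in the 3 replicates over 54 barcodes, with 1757 genomic DNA RPM in the first. IRF_CTCF in context 1 had 105, 58.9 and 0 mRNA RPM, and NFKB_CTCF in context 2 had 240 and 79.2 mRNA RPM and was listed at 0 in the third replicate. Of the arrays measured in every replicate, NFKB_CTCF in context 3 was low throughout, with activities of -4.20, -5.00 and -3.56 (mean -4.25 ± 0.721, SD, n = 3). NFKB_CTCF_NFKB in context 3 was at -2.21, -1.83 and -1.95 (mean -2.00 ± 0.197, SD, n = 3), and IRF_CTCF_IRF in context 3 at -0.91, -0.98 and -1.20 (mean -1.03 ± 0.150, SD, n = 3). The same order in contexts 1 and 2 had means of -0.30 and -0.76, so IRF_CTCF_IRF held the 3 least depressed values after CTCF_IRF in context 1 and CTCF_NFKB in context 3. A single barcode supplied 70.9%, 73.4% and 52.2% of the mRNA of IRF_CTCF_IRF in contexts 1, 2 and 3, and without it the means were -1.99, -2.74 and -2.04. With the replicate number as a block, IRF_CTCF_IRF and CTCF_NFKB in context 2 were no longer called lower in mRNA (limma adjusted p = 0.0728 and 0.0698), which left 15 members. The share of all constructs called lower with this block is not given.

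CTCF_NFKB in context 3 was the higher construct, with activities of 1.35, 0.94 and 1.14 (mean 1.14 ± 0.202, SD, n = 3, limma adjusted p = 0.00845). The barcode ccatggcaagca printed above supplied 93.0% of its mRNA, with 3003, 1904 and 2623 mRNA RPM against 66.4, 45.4 and 88.8 genomic DNA RPM. Without that barcode the activities of the other 27 barcodes were -3.10, -2.97 and -2.02 (mean -2.70 ± 0.588, SD, n = 3). CTCF_IRF in context 1, at 0.12, -0.12 and -0.42, likewise drew 79.0% of its mRNA from the barcode cttccgttccca, which had 1031, 701 and 664 mRNA RPM. Without it the mean was -2.23 ± 0.545 (SD, n = 3).

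Set against the partner motif alone in the same context, limma called 15 of 22 integrated members lower, beside 14.6% of all mixed arrays, and 1 higher, beside 19.9%. The median difference was -3.47, beside 0.02 over all mixed arrays. In each replicate all 22 differences but those of CTCF_NFKB in contexts 2 and 3 were below 0. With 2 of the 3 replicates, limma called 0 or 1 of the 22 lower, and without the top barcode of each construct it called 3. The shares over all mixed arrays under these settings are not given, so these counts cannot be set against them. IRF_CTCF_IRF in context 3 gave -3.00, -3.44 and -3.09 (mean -3.18 ± 0.234, SD, n = 3, limma adjusted p = 0.0138), and NFKB_CTCF_NFKB in context 3 gave -3.00, -2.53 and -2.49 (mean -2.67 ± 0.285, SD, n = 3, limma adjusted p = 0.0168). In the 5 bp episomal library the same differences were -1.81 and -4.24.

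Against homotypic CTCF, limma called 4 integrated members lower, beside 15.9% of all mixed arrays, and 2 higher, beside 15.4%, and 0 in either direction with any replicate left out. The share over all mixed arrays with a replicate left out is not given. Of the 4 lower members 3 share a reference, the array of 3 CTCF motifs in context 2, whose activity lay between 1.24 and 1.76 in the 3 replicates and was the highest of the homotypic CTCF arrays. They were CTCF_NFKB_CTCF at -3.22, NFKB_CTCF_NFKB at -5.93 and IRF_CTCF_IRF at -2.26. The higher members were CTCF_NFKB and IRF_CTCF_IRF in context 3, by 4.09 and 2.50. A single barcode supplied 93.0% and 52.2% of their mRNA, and limma called neither without the top barcode of each construct. Against the copy-weighted mean of log2 activities it called 4 lower, beside 6.93%, and 1 higher, beside 12.5%, but against the log2 of the linear mean it called 15 lower, beside 19.7%, and 1 higher, beside 12.3%. Limma called 1 of 6 order differences, CTCF_NFKB above NFKB_CTCF in context 3 by 5.40 (limma adjusted p = 0.0081), beside 15.5% over all pairs. That difference holds the barcode named above, and it was not called without the top barcode of each construct. Limma called 0 of 4 differences between 2 and 1 CTCF motifs, beside 9.80% over all pairs. At an unadjusted p under 0.05 there were 2, beside 19 lower and 26 higher among the 102 differences over all pairs. It called 2 of 21 context differences, beside 12.2% over all layouts. The CTCF version was the lowest of 8 in 14 of 22 layouts, at rank 2 from the bottom in 2 and higher in 6. It was the highest of 8 for CTCF_NFKB in context 3 and at rank 7 from the bottom for CTCF_IRF in context 1.

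The share of integrated barcodes that gave any mRNA does not depend on the size of single values. For the members it was 9.58%, 10.2% and 7.61% in the 3 replicates (mean 9.14% ± 1.37, SD, n = 3). Homotypic CTCF arrays were at 9.34% ± 3.35 and the constructs without a motif at 9.49% ± 3.08. Homotypic NFKB arrays reached 43.7% ± 7.07, homotypic IRF arrays 58.9% ± 6.51 and all barcodes together 19.6% ± 2.66, so the members sat with CTCF and with the arrays lacking a motif, below NFKB and IRF in every replicate. These homotypic shares pool all copy numbers. With 2 and 3 motifs the means were 10.4% and 8.33% for CTCF, 40.4% and 55.4% for NFKB and 63.7% and 65.1% for IRF. mRNA in all 3 replicates was seen for 18 of 762 member barcodes (2.36%, with a 95% Wilson interval up to 3.70%), against 20.2% (16.4 to 24.6%) of NFKB and 39.7% (34.3 to 45.4%) of IRF barcodes. CTCF_IRF_CTCF had mRNA in any replicate for 5 of 54 barcodes (9.26%, 95% Wilson interval 4.02 to 19.9%), the lowest share of the 8 orders, and CTCF_NFKB for 20 of 77 (26.0%, 17.5 to 36.7%), the highest.

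The integrated table also shows how the episomal table was filled. Each barcode listed in an episomal table had at least 1 read in each of its 3 libraries, so barcodes without mRNA are not in it. Of the 762 integrated member barcodes, 215 were listed in the 5 bp episomal table (28.2%, 95% Wilson interval 25.1 to 31.5%). Homotypic CTCF barcodes were listed about as often, at 25.5% (21.0 to 30.6%), and those without a motif at 61.8%, IRF in 219 of 292 cases and NFKB at 87.8%, with 65.6% for all. Median plasmid reads per barcode in the integrated table lay close together, at 65 for the members, CTCF and IRF, 71 for NFKB and 75 without a motif. Among the members the share ran from 14.8% for CTCF_IRF_CTCF and 14.9% for CTCF_NFKB_CTCF to 39.9% for NFKB_CTCF_NFKB. Barcodes shared by both tables and named in both carried the same construct in 99.0% of 9495 cases, and in 178 of 186 cases for members. Of the 5 bp member barcodes with at least 50 plasmid reads, 11 of 100 had a single mRNA read in the first mRNA library, the lowest a listed barcode can have, beside 2.17% of all such barcodes and 17.4% of those of homotypic CTCF. The part of this listing rule in the activities was not tested.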

How the data were processed

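Episomal tables hold raw read counts per barcode, as deposited by the authors with a construct name, per the file headers. The integrated table holds RPM values, deposited by the authors, for mRNA and genomic DNA, beside plasmid read counts, per the file headers. Its barcodes all had at least 2 RPM of genomic DNA. Aligner and counting tool: not given in the sources used here. Of the per-sample columns, 9 could be tied to no labelled sample and stayed out. Barcodes with no construct name held 16.6% to 18.5% of episomal reads and were left out of all totals.

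Episomal barcodes needed at least 5 plasmid reads, and integrated barcodes had no such minimum. Values were added up by construct, and a construct needed at least 5 barcodes (3 when integrated). The 442 constructs found at both spacers were fitted over 6 libraries with edgeR 4.0.16 (quasi-likelihood, TMM) in R 4.3.3, and the 542 of the 5 bp library also alone. With 1 plasmid library per spacer, plasmid DNA was taken to vary like mRNA. RPM sums plus 0.5 were fitted with limma 3.58.1. Matched differences were fitted with limma over the mixed arrays of all pairs, with 1 value per mRNA replicate, which leaves out the error of the plasmid library. P-values were adjusted by Benjamini-Hochberg over all constructs or differences of a fit, and calls use an adjusted p under 0.05. The fits were tested on simulated data. Other scalings, DESeq2 1.42.0, read and barcode minimums, pseudocounts, a replicate block and left-out replicates were tried as alternatives. RNA and genomic DNA of the integrated assay were extracted jointly, per the labels' protocols, so same-numbered samples were taken as pairs in the activities and matched differences. Their deviations from the group means correlated at -0.02, 0.05 and -0.03. mRNA replicates differed by a chi-square of 6.41 (5 bp) and 6.76 (10 bp) per degree of freedom and were kept apart.

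Members, comparisons and lists were chosen with earlier results of these data known. By the naming rule every member could be named, with the highest, the lowest and those farthest from and nearest to a homotypic array given in full. Other constructs were named as homotypic arrays, as replacements of CTCF or as motif-free constructs.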

Additional observations from a re-analysis of the deposited data

Results flagged for a closer look

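The edgeR interaction between spacer and mRNA was past adjusted p of 0.05 for 8 members, so their activity differed between the 10 bp and the 5 bp library. All values are 10 bp minus 5 bp on the log2 scale, and spacer and plasmid pool cannot be told apart. The largest was 2.28 (SE 0.07, edgeR adjusted p = 2.51e-13) for NFKB_CTCF_NFKB in context 3. CTCF_NFKB differed by 1.78 in context 2 and by 1.28 in context 3, and NFKB_CTCF by 1.05 in context 3. CTCF_IRF in context 3 differed by 0.39. Lower at 10 bp were NFKB_CTCF_NFKB in context 1 by -1.57 and in context 2 by -0.24, and CTCF_NFKB_CTCF in context 2 by -0.73. Those 3, and the 4 increases over 1, kept their sign by library totals and when scaled to the motif-free constructs, and CTCF_IRF in context 3 did not. NFKB_CTCF_NFKB in context 2 was not called by library totals (edgeR adjusted p = 0.281), and it turned to 0.11 with at least 20 plasmid reads per barcode. NFKB_CTCF_NFKB in context 1 had a mean of 34.7 plasmid reads per barcode at 10 bp, while this order had 14.3 to 16.0 at 5 bp. The part of this depth in the spacer difference was not tested. Whether the 10 bp barcodes of NFKB_CTCF_NFKB in context 3 were assigned to the right array was not tested.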

How the results depend on the processing

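Of 2592 alternative values for single constructs and differences, 2306 kept their direction and their side of the threshold, 193 fell below it, 53 rose past it and 40 turned. Shares called over all constructs or mixed arrays were given only for the main fits, the scalings, the barcode interval and the linear mean. Member counts under the other settings therefore do not show whether members changed more than other arrays. With a replicate block, 18 members were lower at 5 bp, 16 at 10 bp and 15 when integrated, and 8 differed between spacers. Over single constructs and differences, 4 calls were lost. The episomal replicate numbers were not taken as pairs, with a correlation of 0.05 between same-numbered samples of both spacers. With no replicate block, using mean genomic DNA, the integrated counts were 4 below and 2 above CTCF, 14 below and 1 above the partner, 4 below and 1 above the mean, 0 for number, 1 for order and 2 for contexts.

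Scaled to the motif-free constructs, 18 members differed between spacers, and the integrated library had 7 lower. The spacer difference turned to -0.47 and -0.32 for CTCF_IRF in contexts 2 and 3, -0.44 for CTCF_NFKB in context 1, -0.44 for CTCF_NFKB_CTCF in context 3, -0.59 and -0.45 for IRF_CTCF in contexts 1 and 3 and -0.57 for NFKB_CTCF in context 1. Integrated activity turned to 1.20 for CTCF_IRF in context 1 and to 0.58 and 0.31 for IRF_CTCF_IRF in contexts 2 and 3.

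Requiring 20 plasmid reads of a barcode, the 5 bp order and context counts were 0 and 9, the 10 bp order count was 5 and 1 member lay below CTCF at 10 bp. The spacer difference turned to 0.61 for CTCF_NFKB_CTCF in context 1 and 0.11 for NFKB_CTCF_NFKB in context 2. The difference from CTCF at 5 bp turned to -0.0228 for CTCF_IRF_CTCF, -0.079 for IRF_CTCF and -0.072 for NFKB_CTCF in context 3, and at 10 bp to 0.21 for CTCF_NFKB_CTCF in context 2. The NFKB order difference at 5 bp turned to -0.24 and 0.12 in contexts 2 and 3, and the 10 bp CTCF_NFKB_CTCF difference of contexts 3 and 1 to -0.16. At 5 bp, differences of contexts turned to -0.016 (2 minus 1) and 0.0068 (3 minus 2) for CTCF_NFKB, 0.35 (2 minus 1) and -0.35 (3 minus 2) for NFKB_CTCF, 0.10 (3 minus 1) for CTCF_NFKB_CTCF, -0.28 (3 minus 1) for IRF_CTCF, and -0.032 (3 minus 1) and -0.23 (3 minus 2) for IRF_CTCF_IRF.

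By the median barcode, 9 members lay above CTCF at 5 bp, 1 below it at 10 bp, and the 5 bp order and context counts were 0 and 2. Values turned to -0.12 for CTCF_NFKB_CTCF in context 1 and -0.12 for IRF_CTCF in context 2 (against CTCF, 5 bp), and to -0.23 for CTCF_NFKB_CTCF in context 1 and 0.15 for NFKB_CTCF in context 2 (10 bp). The 10 bp IRF order difference in context 1 became 0.031 and the CTCF_NFKB_CTCF context difference, 2 minus 1, 0.012. At 5 bp the context differences became 0.14 for CTCF_NFKB_CTCF (3 minus 1), and -0.10 (2 minus 1) and -0.053 (3 minus 1) for IRF_CTCF. With the barcode interval required, 6 members lay above CTCF at 5 bp, 8 above and 1 below at 10 bp, and 0 orders and 2 contexts were called at 5 bp. Against the log2 of the linear mean, 1 member was above at 10 bp, beside 61.3% of all mixed arrays, as CTCF_NFKB in context 2 turned to -0.09, and 15 were below when integrated, beside 19.7%.

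Leaving out 1 replicate, the integrated counts ran from 10 to 15 lower in mRNA, 0 below and above CTCF, 0 to 1 below and 0 above the partner, 0 below and above the mean, 0 to 1 for order and 0 for contexts. NFKB_CTCF in context 1 at 10 bp lay between -0.078 and 0.44 from CTCF. Without the top barcode of each construct, an alternative chosen after seeing the data, 18 members were lower in mRNA, 3 were below the partner, and the other counts were 0. CTCF_NFKB in context 3 turned to -2.70, to -1.78 against its partner and to -0.69 against the mean. A pseudocount of 0.1 gave 1 above CTCF and 1 context, a pseudocount of 2 gave 8 below the mean, and at least 10 barcodes gave 9. The cause of these changes was not tested. Precision is limited by 18 to 60 integrated barcodes per member, by 1 plasmid library per spacer and by the listing of barcodes with mRNA reads only.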
